A study of Mus musculus with 23 samples.

Results

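The collapsin response mediator proteins (CRMPs) are 5 related genes in the mouse, Crmp1, Dpysl2, Dpysl3, Dpysl4 and Dpysl5, and their mRNA was followed through the postnatal growth of the prefrontal cortex. All probe sets whose platform annotation names 1 of these symbols and no other were taken, which gave 5 of the 12394 singly named genes and 9 of the 22690 probe sets on the array. Crmp1, Dpysl2 and Dpysl5 had 1 probe set each, and Dpysl3 and Dpysl4 had 3 each. Where a gene had several, the one with the highest mean over the 23 arrays leads. The arrays were Affymetrix MOE430A chips, each carrying the prefrontal RNA of 1 male C57BL/6 mouse bred from wild-type parents. Mice were 2 weeks (n = 6), 3 weeks (n = 4), 4 weeks (n = 4), 5 weeks (n = 5) or 10 weeks old (n = 4), with no treatment named. Besides age the labels give a batch, and batch 2 held only 2 week 2 and 2 week 5 mice. The tissue was everything in front of a coronal cut about 3 mm behind the frontal pole, so parts of neighbouring regions can be in it. Levels are GCRMA values on the log2 scale, on which 1 unit is a factor of 2, and a level of 1 probe set cannot be set against that of another.

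CRMPs are cytosolic phosphoproteins of neurons that bind tubulin and carry the signal of semaphorin 3A, a repellent cue, from its neuropilin and plexin receptors to the growth cone of an axon. Cdk5 and GSK3 phosphorylate them in sequence and loosen their hold on tubulin. In the rodent brain the family is known as a set of genes of axon and dendrite outgrowth, with several members most abundant while neurons are young.

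The promoters of Dpysl5 and Crmp1, 2 of the 4 members that fell with age in the results that follow, are shown for the letters at their starts. Those of Dpysl2, Dpysl3 and Dpysl4 are not shown here. Each sequence is the RefSeq promoter of build GRCm38.p6, plus strand, from 250 bases before to 50 after an annotated gene start, and capitals mark the GC box GGGCGG or its reverse CCGCCC, the letters bound by Sp1-type factors. The Dpysl5 promoter is chr5:30711314-30711613. Crmp1 has 2 annotated starts, with promoters chr5:37241808-37242107 and chr5:37245514-37245813.
Dpysl5: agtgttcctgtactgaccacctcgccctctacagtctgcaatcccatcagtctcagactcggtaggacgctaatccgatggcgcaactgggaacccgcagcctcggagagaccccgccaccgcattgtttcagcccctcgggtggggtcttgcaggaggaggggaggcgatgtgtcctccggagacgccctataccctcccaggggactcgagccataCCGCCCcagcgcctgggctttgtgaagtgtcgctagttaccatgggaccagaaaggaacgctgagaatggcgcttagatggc
Crmp1, first start: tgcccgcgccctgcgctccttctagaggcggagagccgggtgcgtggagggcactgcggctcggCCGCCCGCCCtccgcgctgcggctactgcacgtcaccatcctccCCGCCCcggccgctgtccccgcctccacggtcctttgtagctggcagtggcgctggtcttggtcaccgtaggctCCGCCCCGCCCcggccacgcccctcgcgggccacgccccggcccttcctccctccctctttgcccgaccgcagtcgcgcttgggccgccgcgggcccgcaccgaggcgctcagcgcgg
Crmp1, second start: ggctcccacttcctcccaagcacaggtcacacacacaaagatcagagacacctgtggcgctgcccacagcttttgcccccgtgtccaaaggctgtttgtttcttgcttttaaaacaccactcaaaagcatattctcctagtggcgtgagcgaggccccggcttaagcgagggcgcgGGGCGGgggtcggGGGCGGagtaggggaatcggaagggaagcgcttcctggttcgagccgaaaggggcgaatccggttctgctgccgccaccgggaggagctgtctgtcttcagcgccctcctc

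The Dpysl5 promoter held 1 GC box, the first Crmp1 promoter 5 and the second 2, and overlapping matches of this motif were counted separately. Of all 32851 promoters of 300 bases, 35.7% held at least 1. CpG pairs numbered 19 in the Dpysl5 promoter and 41 and 20 in those of Crmp1, against a median of 7 over all promoters. The E-box CANNTG, which reads the same on both strands, had 1 match in the Dpysl5 promoter and 1 at the second Crmp1 start, and 72.3% of all promoters held one. None of the 3 held TATAAA or its reverse TTTATA, letters found in 13.6% of all promoters. These are matches of letters and were not tied to the levels below.

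Some arrays stood apart. The week 5 batch 1 animal 7 had Dpysl3, Crmp1 and Dpysl5 levels above those of all week 3 and week 4 animals, and its levels of Dcx (8.32) and Cd24a (9.66), genes of young neurons, were the highest of its age. Of the same marker list, Tubb3 (10.65) was highest too and Stmn1 (13.41) second highest, while Sox4 (9.10) and Sox11 (3.80) were second lowest. The rest of that list is not given gene by gene. Over the 10 measured genes of the list this mouse averaged 8.11, against 7.64 to 8.05 in the other week 5 mice. Its mean over the 4 measured striatal markers was 6.59, against 6.60 in the week 5 batch 1 animal 2 and 8.23 to 10.18 in all other mice. The pituitary hormone genes Gh (15.48), Prl (13.22) and Pomc (12.72) were high in the week 4 animal 2. Tbx21 (olfactory bulb), Kl (choroid plexus), Lum (fibroblasts) and Cdk1 (dividing cells) lay below 4 on every array, while neuronal Snap25 lay between 13.40 and 14.62. All other measured markers of those lists reached 4 on at least 1 array. The fibroblast list averaged 6.84 (SD 0.26) at week 2 and 5.43 (SD 0.19) at week 10. The olfactory bulb list averaged up to 5.63 in a week 5 mouse, where the mean of that age was 4.67 (SD 0.54). Mice of the other ages reached at most 5.27. Whether such tissue was in the samples was not tested. Arrays were scanned on 7 days, the week 3 arrays all on a day of their own, so week 3 and its scan day cannot be told apart.

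All 9 probe sets passed the filter on dim values (log2 of at least 4 on at least 4 arrays), as 16103 of 22690 did. Called means an adjusted p under 0.05 in limma, over all 16103. Among the 5 ages, 8 of the 9 family probe sets differed by the F-test, where 31.6% of all tested probe sets did, and the one that did not was that of Dpysl2. From week 2 to week 10, 7 of 9 were called and all 7 were lower, against 17.1% of all probe sets called and 10.7% called lower. The family was chosen with earlier results of these data known, so such counts are a description. The 4 genes Crmp1, Dpysl3, Dpysl4 and Dpysl5 fell. In whole tissue, fewer cells that express a gene and less of its RNA per cell cannot be told apart.

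**Figure D1:**
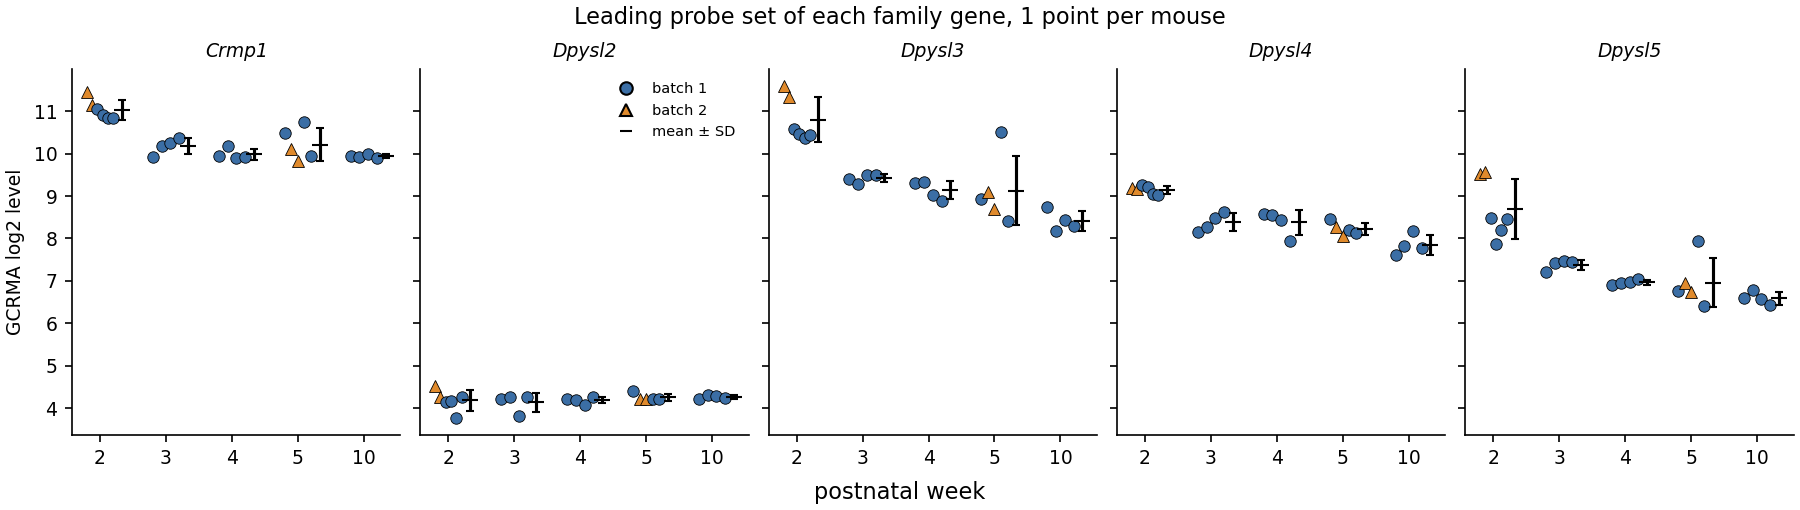
Level of the leading probe set of each gene (GCRMA log2 units) by postnatal week. Each point is 1 mouse, circles batch 1 and triangles batch 2, with the mean and SD of the age beside them. Week 2 is highest for Crmp1, Dpysl3, Dpysl4 and Dpysl5, 1 week 5 mouse lies far above its age in Dpysl3 and Dpysl5, and Dpysl2 stays near 4.

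Crmp1 encodes a member that is needed for the response of cortical neurons to semaphorin 3A in mice. At week 2 its log2 level had a lowest value of 10.83, a median of 10.98 and a highest value of 11.44. The week 3 mice had 9.93, 10.19, 10.25 and 10.36, and the week 4 mice 9.94, 10.17, 9.91 and 9.91. All older mice were below every week 2 mouse. For this and later statements on overlap between ages, the share over all probe sets was not counted. At week 5 the levels were 10.48, 10.74 and 9.94 in batch 1 and 10.10 and 9.83 in batch 2, the widest spread of any age (SD 0.38). At week 10 they were 9.94, 9.91, 10.00 and 9.90 (SD 0.05). Crmp1 fell by 1.10 from week 2 to week 10 (SE 0.16, 2.14-fold, adjusted p = 5.45e-05 by limma).

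Dpysl3 encodes CRMP4, a member that binds actin filaments as well as tubulin and that marks newborn neurons in rodents. Its leading probe set, 1454613_at, read 10.37 to 11.60 at week 2 with a median of 10.53. The 2 highest values, 11.60 and 11.34, were those of the batch 2 mice. At week 3 the levels were 9.40, 9.29, 9.50 and 9.48, and at week 4 they were 9.30, 9.33, 9.03 and 8.90, so these ages touched each other and not week 2. The week 5 mice read 8.92, 10.50 and 8.41 in batch 1 and 9.11 and 8.70 in batch 2. The value of 10.50, from animal 7, lay inside the week 2 range, and the other 4 week 5 mice averaged 8.79 ± 0.30 (SD, n = 4). At week 10 the levels were 8.74, 8.18, 8.43 and 8.29. The fall from week 2 to week 10 was 2.27 on the log2 scale (SE 0.31, 4.84-fold, adjusted p = 2.66e-05 by limma), the largest among the 5 leading probe sets.

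The other probe sets of Dpysl3 differed in their course. Probe set 1415877_at fell by 2.87 from week 2 to week 10 (SE 0.39, adjusted p = 3.41e-05 by limma), from 8.27 ± 0.73 (SD, n = 6) to 5.22 ± 0.29 (SD, n = 4). Probe set 1438789_s_at had means of 6.60 at week 2 (SD 0.30), 7.04 at week 3 (SD 0.22), 6.84 at week 4 (SD 0.23), 6.54 at week 5 (SD 0.05) and 6.47 at week 10 (SD 0.23). Its change from week 2 to week 10 was -0.07, with a 95% interval of -0.37 to 0.23. The suffix _s_at marks a probe set whose probes can match transcripts of more than 1 gene or form. Which transcripts of Dpysl3 each set reads was not examined.

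Dpysl4 encodes CRMP3, a member that calpain cleaves and that shapes dendrites of hippocampal neurons in mice. Its leading probe set, 1418298_s_at, read 9.01 to 9.26 at week 2 with a median of 9.18, and the batch 2 mice lay inside that range. Levels were 8.16, 8.28, 8.49 and 8.62 at week 3 and 8.57, 8.56, 8.44 and 7.95 at week 4. Week 5 gave 8.45, 8.20, 8.12, 8.27 and 8.07, and the animal 7 that stood out for Dpysl3 was in the middle of its age here at 8.20. At week 10 the levels were 7.61, 7.83, 8.17 and 7.79. Every later mouse was below every week 2 mouse. Dpysl4 fell by 1.31 from week 2 to week 10 (SE 0.13, 2.48-fold, adjusted p = 7.5e-07 by limma). The leading set has the suffix _s_at as well, so its probes too can match transcripts of more than 1 gene or form. The probe sets 1418297_at and 1418299_at, without this suffix, fell too, with changes of -1.38 and -1.67. In both the week 10 animal 1 was lowest, at 5.46 and 6.45.

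Dpysl5 encodes CRMP5, which in cultured rodent neurons opposes the growth-promoting action of CRMP2. Its week 2 levels ran from 7.86 to 9.57 with a median of 8.47, and the 2 batch 2 mice read 9.53 and 9.57 against 7.86 to 8.48 in batch 1. At week 3 the levels were 7.21, 7.42, 7.46 and 7.45, and at week 4 they were 6.90, 6.96, 6.97 and 7.05. These ages did not overlap, but the step between them was not called (adjusted p = 0.388 by limma). Week 5 gave 6.75, 7.94 and 6.41 in batch 1 and 6.94 and 6.74 in batch 2, and animal 7, at 7.94, again lay just inside the week 2 range. At week 10 the levels were 6.60, 6.79, 6.57 and 6.42. Dpysl5 fell by 1.89 (SE 0.27, 3.71-fold, adjusted p = 4.69e-05 by limma).

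Dpysl2 encodes CRMP2, the founding member, which carries tubulin to growing axons. Its only probe set, 1450502_at, read 3.77 to 4.52 over all 23 arrays, at or above the filter value of 4 on 21 of them. Its mean lay at percentile 32.7 of all probe sets. The age means ran from 4.14 at week 3 to 4.27 at week 10, inside the spread of week 2 (SD 0.25). The change from week 2 to week 10 was 0.13 with a 95% interval of -0.10 to 0.36 (adjusted p = 0.458 by limma). A reading this close to the dim end of the array is a poor measure of the transcript, and no statement on the level of Dpysl2 mRNA rests on it.

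**Figure D2:**
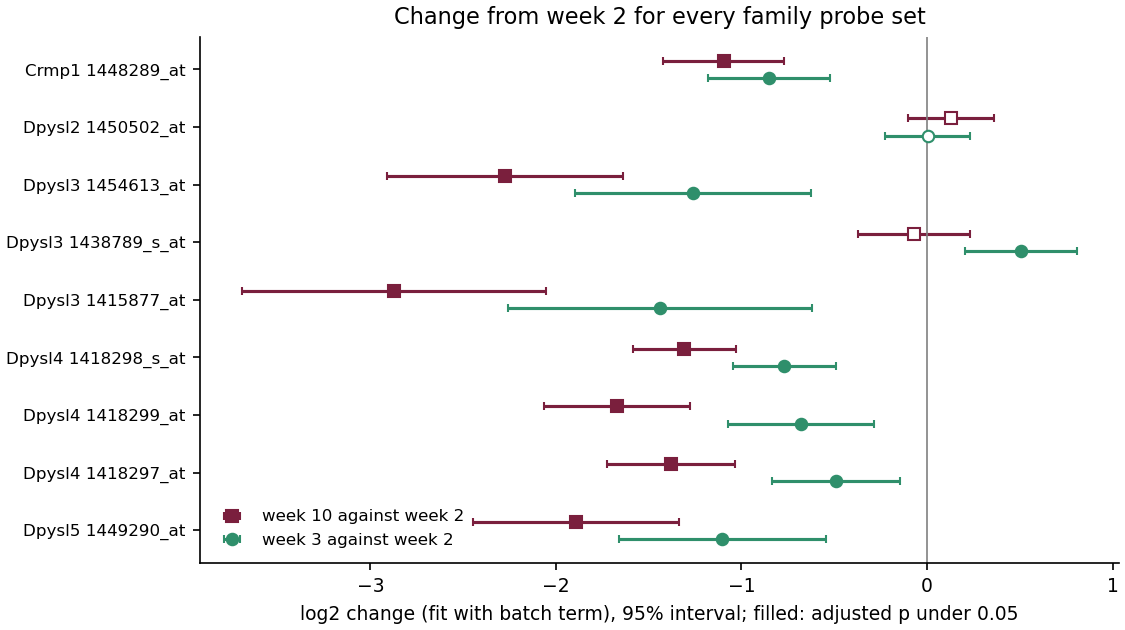
Change on the log2 scale from week 2 to week 10 (squares) and to week 3 (circles) for all 9 probe sets, from the fit with a batch term. Bars are 95% intervals and filled symbols passed the test. The intervals of Dpysl2 include 0 in both, and 1438789_s_at of Dpysl3 is the only probe set to the right of 0 with a filled symbol, at week 3.

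The week 2 to week 10 falls of the 4 genes passed the test under all 40 alternatives run for each leading probe set, with changes of -1.40 to -0.97 for Crmp1, -2.84 to -2.06 for Dpysl3, -1.42 to -1.21 for Dpysl4 and -2.60 to -1.66 for Dpysl5. These ranges leave out the choice of another probe set. For Dpysl3 and Dpysl5 the larger extreme came from scan day as a fixed term, and the smaller from batch 1 arrays alone. On scan day 4, which held 1 week 2 and 1 week 10 mouse, the older minus the younger was -0.94 in Crmp1, -2.14 in Dpysl3, -1.23 in Dpysl4 and -2.05 in Dpysl5. Markers of other cells moved between the same ages. The mean of the 10 measured markers of immature neurons was 8.53 to 8.79 at week 2 and 7.71 to 7.97 at week 10, with 5 of 10 called lower, and the mean of the fibroblast markers was 6.48 to 7.16 and 5.25 to 5.60, with 4 of the 4 tested called lower. Called lower too were 3 of 5 astrocyte, 3 of 5 endothelial and 3 of 4 oligodendrocyte precursor markers. No cortical neuron marker was called lower and 2 of 6 were called higher, and no mature oligodendrocyte, microglial, striatal, olfactory bulb, choroid plexus or pituitary marker was called. Of the proliferation markers 3 were on the array and none passed the filter. The part of cell makeup in the family's falls was not tested.

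In the step from week 2 to week 3 8 of 9 family probe sets were called, 7 lower and 1 higher, against 16.0% of all probe sets called, 9.29% lower and 6.67% higher. The change was -0.85 for Crmp1 (SE 0.16, adjusted p = 0.00127 by limma), -1.26 for Dpysl3 (SE 0.31, adjusted p = 0.00795), -0.77 for Dpysl4 (SE 0.13, adjusted p = 0.000845) and -1.10 for Dpysl5 (SE 0.27, adjusted p = 0.00811). The probe set 1438789_s_at of Dpysl3 went the other way and was higher by 0.51 (adjusted p = 0.0207 by limma). These calls depended on how scan day was handled. Where a random block for scan day replaced the batch term, none of the 8 was called, with changes of -0.90 for Crmp1 (adjusted p = 0.0544), -1.47 for Dpysl3 (0.106), -0.77 for Dpysl4 (0.0579) and -1.40 for Dpysl5 (0.0773), as large as or larger than with the batch term. Where the block was added to the batch term, no probe set that does not lead was called. The leading sets of Crmp1 and Dpysl4 were called there, and those of Dpysl3 (-1.36, adjusted p = 0.0856) and Dpysl5 (-1.22, adjusted p = 0.0634) were not. With 1 term for scan days 6 and 7 replacing batch, all 4 were called, at -0.89 for Crmp1 (adjusted p = 0.00533), -1.67 for Dpysl3 (0.00648), -0.73 for Dpysl4 (0.00641) and -1.77 for Dpysl5 (0.00144), the last over 1.5 times its value with the batch term. The call of 1418297_at of Dpysl4 (adjusted p = 0.0476 by limma) held in 13 of 39 alternatives, and that of 1438789_s_at was lost without the week 2 animal 3 (0.40, adjusted p = 0.0671) or the week 3 animal 6 (0.40, adjusted p = 0.0839), with scan day as a random block (0.43 replacing batch and 0.48 beside it), and with the term for days 6 and 7 (0.27, adjusted p = 0.351). That of 1418299_at was lost without the week 3 animal 2 (-0.62, adjusted p = 0.0523) and in each fit with the random block. There its change was -0.715 with the block replacing batch (adjusted p = 0.162 by limma) and -0.63 with it beside batch (0.163).

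From week 3 to week 4, 1 of 9 family probe sets was called, 1415877_at of Dpysl3, which fell by 1.46 (SE 0.41, adjusted p = 0.0239 by limma). Among all probe sets 11.4% were called and 6.55% called lower. Its levels were 6.42, 6.47, 6.60 and 7.13 at week 3 and 5.33, 5.42, 4.73 and 5.30 at week 4, with no overlap. The call was lost without the week 3 animal 6 (-1.30, adjusted p = 0.073), without the week 4 animal 3 (-1.30, adjusted p = 0.0764) and in each of the 3 fits with scan day. There the change was -1.31 with the random block replacing batch (adjusted p = 0.446), -1.25 with both (0.477) and -0.55 with the term for days 6 and 7 (0.862). It was also lost with the difference between 3 prime and 5 prime actin signals, a sign of RNA integrity, as a covariate (-0.49, adjusted p = 0.902). That difference was 1.50 to 2.28 in week 4 mice and 1.07 to 1.24 in week 3 mice. The leading Dpysl3 probe set changed by -0.28 in the same step (95% interval -0.94 to 0.38), Crmp1 by -0.20 (-0.54 to 0.14), Dpysl4 by -0.01 (-0.29 to 0.28) and Dpysl5 by -0.41 (-0.99 to 0.17). In a fit of these 2 ages alone Dpysl5 passed the test (-0.41, adjusted p = 0.0102 by limma). Probe set 1418299_at of Dpysl4 (-0.52, adjusted p = 0.094) passed in 4 of 39 alternatives, namely with array weights (-0.61, adjusted p = 0.00363), without scan day 1 (0.00421), without the week 10 animal 1 (0.00552) and with the 2 ages alone (0.00959).

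After week 4 no family probe set was called in a step between neighbouring ages. From week 4 to week 5 0.0745% of all probe sets were called, and from week 5 to week 10 0.0311%. Values from week 5 to week 10 were -0.28 for Crmp1 (95% interval -0.62 to 0.07), -0.58 for Dpysl3 (-1.25 to 0.09), -0.38 for Dpysl4 (-0.67 to -0.09) and -0.12 for Dpysl5 (-0.71 to 0.47). The intervals leave room for falls of more than a factor of 2 in Dpysl3. An unadjusted p under 0.05 in limma was found from week 4 to week 5 for 1 of 9 (1438789_s_at of Dpysl3) and for 13.0% of all probe sets. From week 5 to week 10 it was found for 3 of 9, the 3 Dpysl4 probe sets, which share a gene, and for 5.45% of all. Without the week 5 animal 7 the step from week 5 to week 10 was -0.04 for Dpysl3 and 0.31 for Dpysl5. Without the week 5 animal 8 it was -0.785 and -0.23. None of these values was called.

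**Figure D3:**
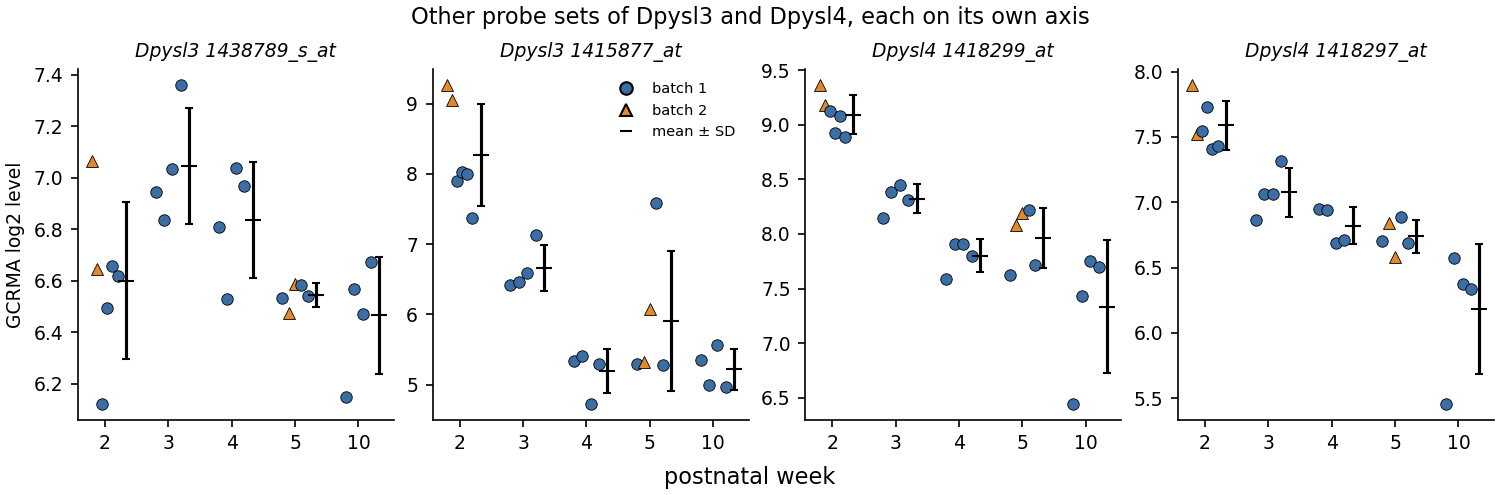
Level of the 4 probe sets of Dpysl3 and Dpysl4 that do not lead (GCRMA log2 units, a separate axis for each) by postnatal week, 1 point per mouse with mean and SD. The set 1438789_s_at is highest at week 3, and the other 3 are highest at week 2. The lowest week 10 point in both Dpysl4 panels is animal 1.

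Put on a common scale, each gene's fitted age means give the percent of the week 2 to week 10 fall that had been covered at each age. By week 3 Crmp1 had covered 77.7%, Dpysl3 55.5%, Dpysl4 58.8% and Dpysl5 58.3%. The SD over mice was 16.8 percentage points for Crmp1 and 15.8 for Dpysl4, and the genes were not tested against each other. The other probe sets of Dpysl4 had covered 40.7% (1418299_at) and 35.5% (1418297_at). At week 4 the values of the leading sets were 95.8%, 67.9%, 59.2% and 80.2%, and at week 5 74.7%, 74.5%, 70.9% and 93.5%. The Dpysl3 probe set 1415877_at had covered 50.1% at week 3, 100.9% at week 4 and 83.3% at week 5. For Dpysl4, 1418299_at stood at 72.0% and 68.7% at weeks 4 and 5, and 1418297_at at 53.9% and 61.9%. Over the 1717 probe sets called lower at week 10, the median was 53.9% at week 3, 62.2% at week 4 and 74.9% at week 5. The genes were not tested against this median. Without the week 5 animal 7 the week 5 group means gave 86.5% for Crmp1, 84.2% for Dpysl3, 71.0% for Dpysl4 and 94.5% for Dpysl5, against 74.7%, 69.9%, 71.4% and 82.8% with it.

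**Figure D4:**
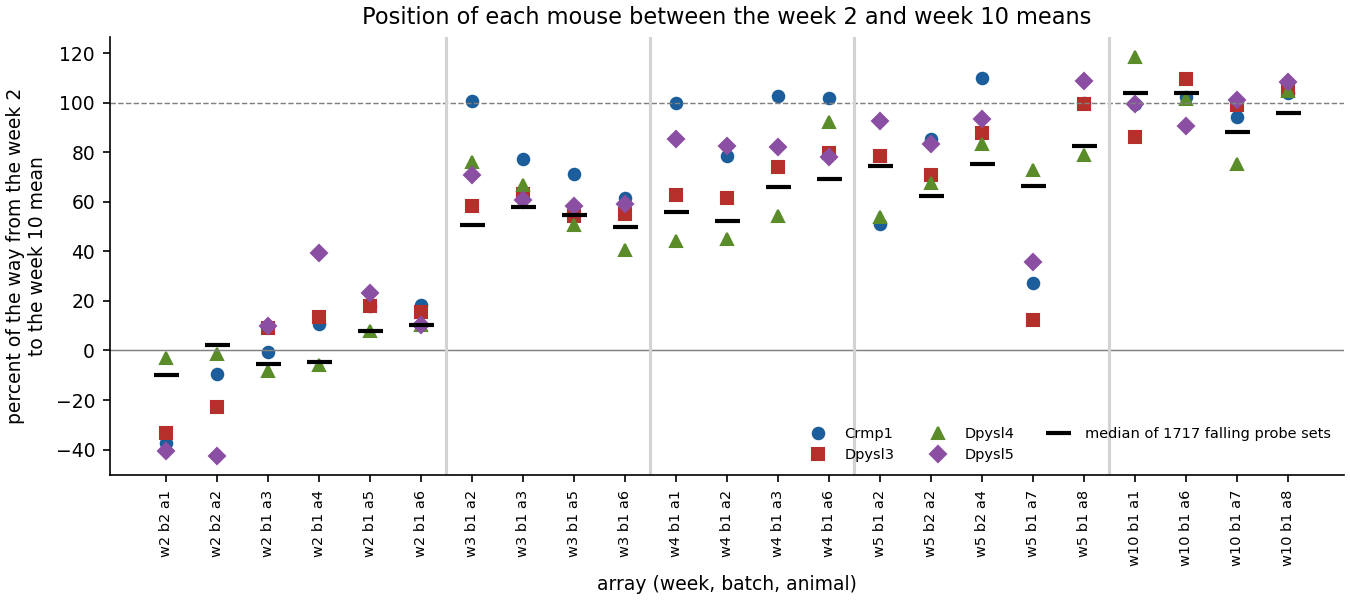
Position of each of the 23 mice between the week 2 mean (0) and the week 10 mean (100), in percent, for Crmp1, Dpysl3, Dpysl4 and Dpysl5, with the median over the 1717 falling probe sets as a black bar. The week 5 batch 1 animal 7 lies at 12.5 in Dpysl3, 27.3 in Crmp1 and 35.9 in Dpysl5, and at 73.0 in Dpysl4, while the median of the falling probe sets is 66.2 there.

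In the week 5 animal 7 the members parted. Dpysl3, Crmp1 and Dpysl5 stood at 12.5%, 27.3% and 35.9% of the way to week 10, and Dpysl4 at 73.0%. The median over the 1717 falling probe sets was 66.2% in this mouse, within the 62.3% to 82.7% of the other 4 week 5 mice. The 6 young-neuron genes placed on this scale were spread out. Dcx stood at 4.5%, Cd24a at 19.7%, Tubb3 at 58.9%, Stmn1 at 61.1%, Sox4 at 80.6% and Sox11 at 162.0%. The scale separates the ages poorly for Stmn1 and Sox11. In Stmn1 week 2 mice reached 62.9% and week 10 mice went down to 26.6%. In Sox11 these values were 78.9% and 77.9%. The collagen gene Col3a1 stood at 62.4%. Its low striatal mean was shared with the week 5 batch 1 animal 2, in which Dpysl3 stood at 78.4% and Dpysl5 at 92.5%, but Crmp1 at 50.9% and Dpysl4 at 53.8%. In the other 3 week 5 mice Crmp1 stood at 85.4% to 109.8% and Dpysl4 at 67.8% to 83.3%. What sets this mouse apart was not tested.

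Batch gave a second view of the fall, since both batches held week 2 and week 5 mice. No family probe set was called for the batch term by limma, where 5.10% of all were. An unadjusted p under 0.05 was found for 1 of 9 and for 19.2% of all. In batch 1, 7 of 9 were called lower at week 5 than at week 2 (6.88% of all probe sets), and in batch 2 the same number (4.24%). The change in batch 1 and in batch 2 was -0.52 and -1.33 for Crmp1, -1.18 and -2.57 for Dpysl3, -0.88 and -1.01 for Dpysl4, and -1.22 and -2.71 for Dpysl5. The difference between batches was called for none of the 9 by limma, where 1.53% of all were. An unadjusted p under 0.05 was found for 4 of the 9 and for 14.3% of all. The difference was -1.49 in Dpysl5 (SE 0.38, adjusted p = 0.0518 by limma), the nearest to the threshold, and -0.13 in Dpysl4 (95% interval -0.65 to 0.39). In batch 1 the call of Crmp1 was lost without the week 2 animal 3 (-0.48, adjusted p = 0.076), the week 2 animal 4 (-0.52, adjusted p = 0.0559) or the week 5 animal 8 (-0.30, adjusted p = 0.167). The call of Dpysl3 there was lost without the week 5 animal 2 (-1.01, adjusted p = 0.0835) or animal 8 (-0.75, adjusted p = 0.107), and without animal 7 its value was -1.79. Within scan day 7, 1 week 5 mouse read lower than the mean of 2 week 2 mice by log2 differences of -1.46 in Crmp1, -2.77 in Dpysl3, -1.11 in Dpysl4 and -2.82 in Dpysl5. All of these mice are in batch 2, so the values repeat part of the batch 2 comparison above.

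Genes with the most similar profile over the 23 arrays were picked by Pearson's r, as a description, since mice of the same age share that age and many genes that changed with age correlate. Dpysl3 and Dpysl5 were each other's closest gene among 9195 others (r = 0.96). Crmp1 ranked at 5 among the genes most like Dpysl3 (r = 0.93) and at 9 among those most like Dpysl5 (r = 0.92). Dpysl4 stood further off, at rank 54 for Dpysl3 (r = 0.85). Dpysl3 and Dpysl5 were both high for their age in the batch 2 mice of week 2 and in the week 5 animal 7, where Dpysl4 was not. Values of r between members without these mice are not given. Outside the family, Crmp1 was most like Ncam1 (r = 0.95), a neural adhesion molecule, then Ppp1r14c (0.94) and Wsb2 (0.93). Dpysl3 was most like Cd24a (0.96), a surface protein of young neurons, then Rac3 (0.94), a small GTPase of neurons, and Nrep (0.94). Dpysl4 was most like Deaf1 (0.96), a transcription factor gene, then Atp5g1 (0.95), a subunit of mitochondrial ATP synthase, and Bdh1 (0.94), the enzyme that oxidises the ketone body beta-hydroxybutyrate in mitochondria. Dpysl5 was most like Ppp1r14c (0.96), Rac3 (0.96) and Stmn2 (0.94), a tubulin-binding protein of growth cones. The flat probe set of Dpysl2 reached at most 0.71, with Bcl6b. The lists of the 4 falling genes shared Ppp1r14c between Crmp1 and Dpysl5 and Rac3 between Dpysl3 and Dpysl5, and Dpysl4 shared none of its 3.

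The signal chain around the family was read from 67 listed genes, of which 57 were on the array under their symbol and 52 were tested, each by its leading probe set. From week 2 to week 10, 13 were called lower and 2 higher, against 11.4% of all tested genes called lower and 7.12% higher. The list was chosen with earlier results of these data known, so its counts are a description. The median change of the 52 was -0.13 and that of all tested genes 0.01. Between weeks 2 and 3, 3 were lower and 5 higher, against 9.61% and 5.62% of all genes. From week 3 to week 4, 10 were lower and none higher, with 4.25% of all genes lower. In this last step the actin 3 prime to 5 prime difference moved too, from 1.07 to 1.24 at week 3 to 1.50 to 2.28 at week 4, and the 1839 calls over all probe sets became 0 with it as a covariate and 1, 191 or 2 in the 3 fits with scan day. No alternative setting was run for the listed genes, and the part of RNA integrity or scan day in their counts was not tested.

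None of the 5 tested semaphorin 3 ligands was called at any step. Sema3a, the cue that CRMPs transmit, averaged 7.84 (SD 0.13) in the 6 week 2 mice and 7.80 (SD 0.12) in the 4 week 10 mice, a change of -0.04 (SE 0.10). Of the 8 tested receptors 2 were lower at week 10. L1cam, an adhesion molecule of axons that joins the neuropilin complex, fell by 0.72 (SE 0.14, adjusted p = 0.000904 by limma). Robo1, a receptor for Slit cues, fell by 0.85 (SE 0.21, adjusted p = 0.00863). The neuropilin Nrp1 changed by -0.37 (adjusted p = 0.087 by limma).

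Of the 11 tested kinases 2 were lower at week 10. Fyn, a tyrosine kinase of the semaphorin pathway, fell by 0.80 (SE 0.11, adjusted p = 4.32e-05 by limma). Cdk5r1, the activator p35 of Cdk5, fell by 0.27 (SE 0.08, adjusted p = 0.037). Fyn was among the 5 listed genes higher at week 3 than at week 2, at 0.34, with Gsk3a, Kif5b, Kif5c and Ina, which are named here after their values were seen. Of the 6 tested phosphatases and modifiers 1 was lower at week 10, the PP2A scaffold subunit Ppp2r1a, with a change of -0.28 (SE 0.07, adjusted p = 0.00695 by limma).

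Cargo and binding partners held most of the calls, with 8 of 21 lower and 2 higher at week 10. Rac3 fell by 1.13 (SE 0.20, adjusted p = 0.000361 by limma). Next by size were 3 beta-tubulin genes, with changes of -1.05 for Tubb2b (SE 0.21, adjusted p = 0.00133), -0.88 for Tubb3 (SE 0.14, adjusted p = 0.000132) and -0.75 for Tubb2a (SE 0.10, adjusted p = 3.79e-05). Tubulin genes are near-identical in their coding parts, so their probe sets may read each other's transcripts. The 2 that were higher were Kif5b, a kinesin heavy chain, at 0.38, and Chn1, a Rac GTPase-activating protein, at 0.40, both named after their values were seen. Among relatives by sequence only Cad, which holds the dihydroorotase step of pyrimidine synthesis, was tested, and it changed by -0.26 (SE 0.13, adjusted p = 0.188 by limma).

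**Figure D5:**
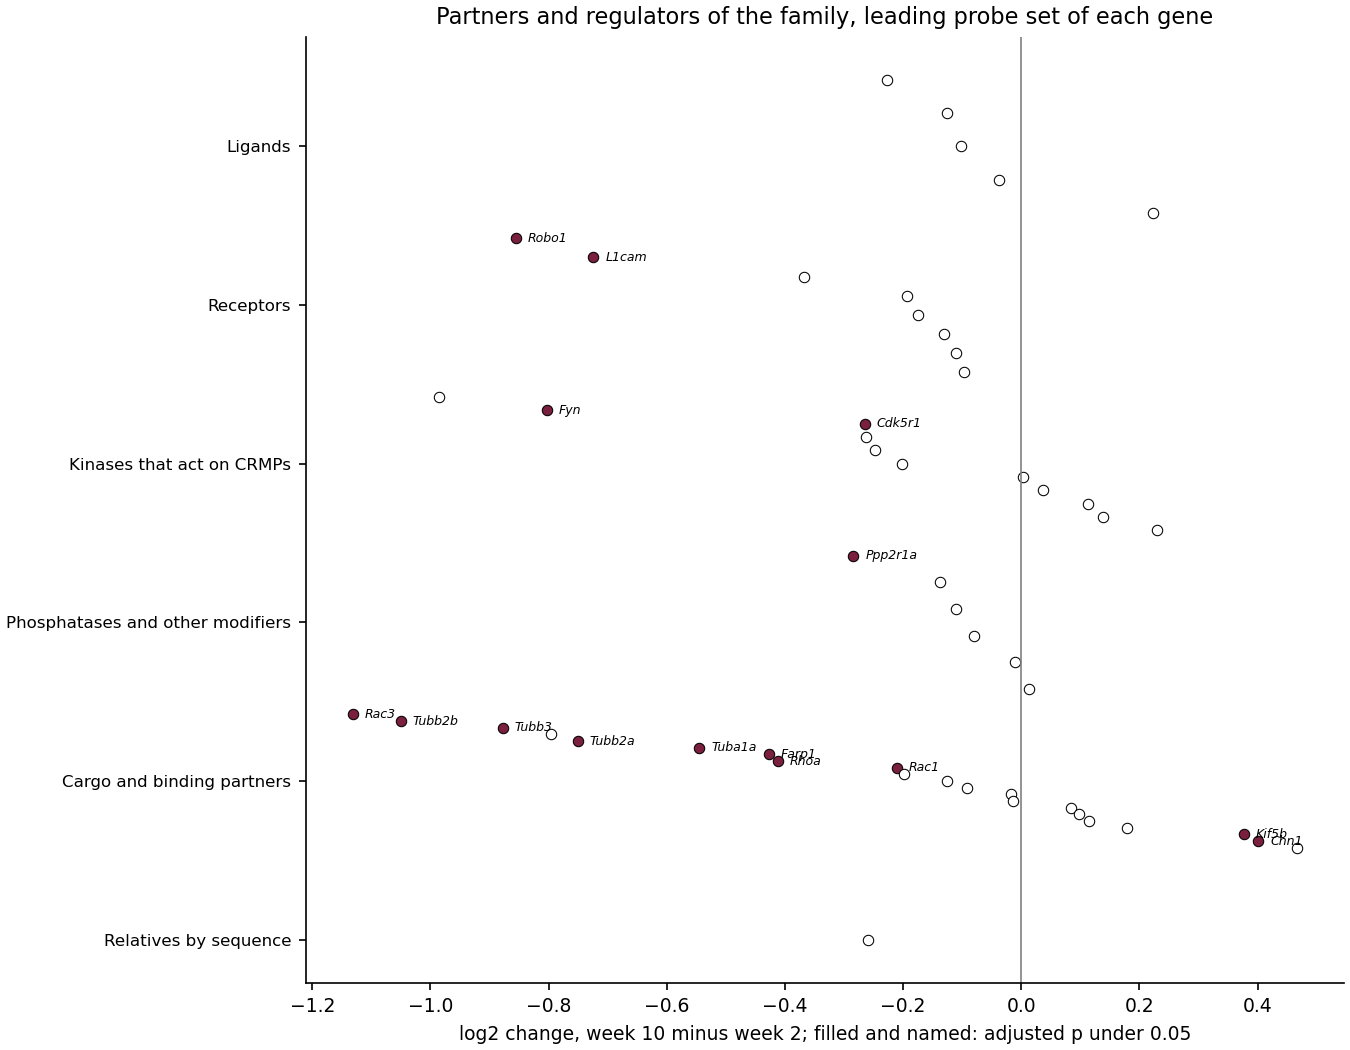
Change on the log2 scale from week 2 to week 10 for the leading probe set of each of the 52 tested partners, grouped by role. Filled points passed the test and carry their gene's name. The 5 ligands have only open points, and Rac3, Tubb2b and Tubb3 lie farthest to the left among the filled ones.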

How the data were processed

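Affymetrix MOE430A arrays measured mRNA in the prefrontal tissue of 23 male mice, each array an independent animal per the series description. The deposited values were in log2 units and made by the authors with GCRMA, per the submitters' processing notes, which gave no version. No normalisation was added, and array medians were 6.15 to 6.27. No column belonged to no sample. The number of arrays limits the precision.

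Age and batch came from titles. The title and description of the week 2 animal 5 disagree on its batch, and the title (batch 1) was followed. Both batches have a week 5 animal 2, counted as 2 mice. Scan days, numbered 1 to 7, came from the scanner records. The 2 arrays of scan day 1 were of another chip lot. The labels do not tie mice to litters. The p-values set each change against the residual spread between these arrays, which also holds differences between scan days. Animal numbers were not taken to pair mice. Over 25 same-numbered pairs of different ages the residuals correlated from -0.60 to 0.35, median -0.04. Over 185 other pairs of different ages they correlated from -0.49 to 0.53, median 0.025. Residuals also carry differences between scan days, so a pairing is not excluded.

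Of 22690 probe sets, 20393 carried 1 gene symbol, 691 several and 1606 none. All 23 arrays entered 1 limma fit (3.58.1, R 4.3.3, two-sided) with a mean per age and a batch term. The fit was tried on simulated data with planted changes. Those data held independent noise and no batch or scan-day effect, so the trial does not bear on such effects. Probe sets at log2 of at least 4 on at least 4 arrays were tested (16103), and p-values were adjusted by Benjamini-Hochberg over all of them. SE is that of a fitted log2 change. Week 5 was also compared with week 2 within each batch. Named were all family probe sets; of each role of the partner list up to 4 genes called from week 2 to week 10, by size of change, or the brightest where none was; and the 3 genes most like each member. The members, partner and marker lists were chosen with earlier results of these data known. Alternatives covered batch, scan day, normalisation, filters, limma settings, RNA integrity, animal number, samples and each array left out; batch 1 alone, the alternatives of the F-test and of the probe sets that do not lead, and the leave-outs within batches were chosen after seeing the data.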

Additional observations from a re-analysis of the deposited data

Results flagged for a closer look

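Of 45 combinations of family probe set and age, 3 held a mouse whose gap to the next took up more of the range of its age than Dixon's 95% value allows, and chance alone flags about 1 in 20 groups. In Crmp1 the week 4 animal 2 read 10.17 against 9.91 to 9.94 in the other 3, and this is the mouse with high pituitary hormone genes. The probe set of Dpysl2 gave 3.81 in the week 3 animal 5, where the others read 4.23 to 4.27, and 4.39 in the week 5 batch 1 animal 2 (4.21 to 4.23 in the others), both at the dim end of the array. The week 5 animal 7 that stands out in Dpysl3 and Dpysl5 did not pass this measure in either.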

How the results depend on the processing

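The falls of Crmp1, Dpysl3, Dpysl4 and Dpysl5 from week 2 to week 10 kept their direction and call under every alternative run, except that the Dpysl3 probe set 1438789_s_at gave -0.071, uncalled; from week 2 to week 3 it gave 0.51, the opposite direction. With 1 array left out at a time, Crmp1 ran from -1.15 to -1.05, Dpysl3 from -2.38 to -2.17, Dpysl4 from -1.42 to -1.23 and Dpysl5 from -2.06 to -1.80; the week 5 to week 2 change in batch 1 ran from -0.70 to -0.30 for Crmp1 and from -1.79 to -0.75 for Dpysl3. Counts of probe sets called moved more, and the cause was not tested.

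From week 2 to week 10, 2748 were called, 1523 with fixed scan-day terms (week 3 left out) and 2188 to 2822 with 1 array left out. From week 2 to week 3 the 2570 calls became 112 with a random block for scan day replacing batch, 597 with both, 1158 with days 6 and 7 as a term, 4212 with array weights and 1782 to 3001 with 1 array left out. From week 3 to week 4 the 1839 calls became 1, 191, 2 and 3678 under those 4 settings in that order, 0 with the actin covariate and 1219 (without the week 4 animal 2) to 2115 with 1 array left out. From week 4 to week 5 the 12 calls became 0, 0, 20 and 835 under the same 4, 6 without a batch term, 2 with the week 2 animal 5 in batch 2, 0 with fixed scan-day terms, with the actin covariate or in a limma fit of the 2 ages alone, 369 in batch 1 alone, and 2 (without the week 4 animal 1) to 303 (without the week 4 animal 6) with 1 array left out. From week 5 to week 10 the 5 calls became 16 with scan day in place of batch, 9 with the actin covariate, 1 without scan day 1, 0 with the 2 ages alone and 3 to 9 with 1 array left out. Among the 5 ages the 5085 calls became 1811 and 2199 with scan day in place of and beside batch, 3260 with days 6 and 7 as a term, and 4272 to 5499 with 1 array left out.

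With animal number as a replicate block, 2617 probe sets were called from week 2 to week 10 and Crmp1 changed by -1.08; the block ended 1 family call, that of 1418297_at from week 2 to week 3 (-0.49, adjusted p = 0.0519 by limma). For Dpysl2, 1 of its 3 most alike genes was the same in batch 1 arrays alone. The signal of Dpysl2 near the filter value limits what its probe set can show.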
